A study of Mus musculus with 159 samples.

Results

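The comparison set the MARCO+ macrophage segments of mouse liver sections against the hepatic stellate cell (HSC) segments of the same livers. A segment is the part of a region of interest (ROI) that carries one combination of stains, read out as 1 library. MARCO+ segments carried MARCO and the pan-macrophage marker IBA1, and HSC segments carried DESMIN. There were 45 MARCO+ and 41 HSC segments, 86 of 159 segments in all, and all 607 deposited genes were used. They came from 49 of 51 ROIs, and 37 ROIs held both segment types. By liver, 12, 14, 10 and 9 MARCO+ segments and 12, 9, 11 and 9 HSC segments came from livers 1 to 4. ROIs were placed by the strength of the MARCO stain, and MARCO-Hi ROIs supplied 26 MARCO+ and 25 HSC segments. MARCO-Lo ROIs supplied the other 19 and 16.

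The livers were from wild-type C57BL/6 mice, male and female in the study, aged 8 weeks at the start, that received carbon tetrachloride (CCl4) for 6 weeks. Per the study's methods, mice of this experiment received either MARCO+ bone marrow-derived macrophages or saline on top of CCl4, so every liver here had toxic injury and none is an uninjured control. The sample descriptions call livers 1 and 3 treated CCl4 and livers 2 and 4 control, and they do not say which mice received cells. The sources used here do not state whether MARCO+ cells in a section were resident or transferred. Sections were fixed and paraffin-embedded, and barcoded probes were released by light from 1 segment at a time. A segment can therefore hold parts of neighbouring cells, and fewer cells of a type cannot be told apart from less RNA per cell. Per its text, the study narrowed these data to HSC genes chosen from single-cell sequencing. The deposited table holds few macrophage genes, and each value is relative to the genes of that table.

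MARCO is a scavenger receptor of macrophages that binds modified lipoproteins, bacteria and particles, and in liver it marks a subset of resident and recruited macrophages. HSCs lie between hepatocytes and sinusoidal endothelium, store retinoids at rest, and on chronic injury turn into contractile cells that lay down collagen. Macrophages meet them in the perisinusoidal space, where both cell types clear or remodel matrix and exchange growth factors and chemokines.

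Each value is a count normalized to the 75th percentile of its segment (Q3). Values were averaged over the segments of each liver within a ROI class, log2 was taken after adding 1, and MARCO+ minus HSC was formed within liver and class. The mean of both classes gave 1 difference per liver, and limma with Benjamini-Hochberg adjustment was applied to the 4 differences over 607 genes. Folds are on this log2(value + 1) scale. The recovered counts per segment ranged from 3106 to 27341 (median 8408) in MARCO+ segments and from 1448 to 16715 (median 3675) in HSC segments. MARCO+ segments were deeper by 1.21 ± 0.64 (SD, n = 4 livers) on the log2 scale, in the same direction in 4 of 4 livers, and an exact permutation test that flips the signs of the 4 differences gave a two-sided p = 0.125, its smallest possible value. No value was 0, and the lowest was 1 count, which was worth a median of 1.68 normalized units in MARCO+ and 3.72 in HSC segments.

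Macrophage transcripts were higher and matrix transcripts lower in MARCO+ segments, and the difference was broad. Of 607 genes, 364 passed an adjusted p of 0.05 by limma (60%), with 142 higher (23.4%) and 222 lower (36.6%) in MARCO+ than in HSC segments. The list counts below are to be read against the 23.4% and 36.6%. The median over all genes was -0.07 on the log2 scale. Of the 364 genes, 346 had the same sign in all 4 livers, 22 were more than 1 log2 unit higher and 70 more than 1 log2 unit lower. The split between higher and lower depended on scaling. It was 207 higher and 192 lower after re-centring each segment on its median, which moved the median over all genes to 0.07, and 207 and 206 in edgeR's quasi-likelihood test on summed counts, where that median was 0.06. All 142 genes called higher and 190 of the 222 called lower kept their call and direction under both. Low counts went with one direction. Of the 157 genes with a mean recovered count under 5, 95 were called lower and 0 higher, against 127 lower and 142 higher of the other 450. With every value below 8.69 normalized units, the most that 1 count was worth in any of these segments, raised to that floor, the 157 genes gave 76 lower and 0 higher. In edgeR they gave 85 lower and 3 higher. The depth of the segment types differed alongside this split, and its further part was not tested.

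**Figure D1:**
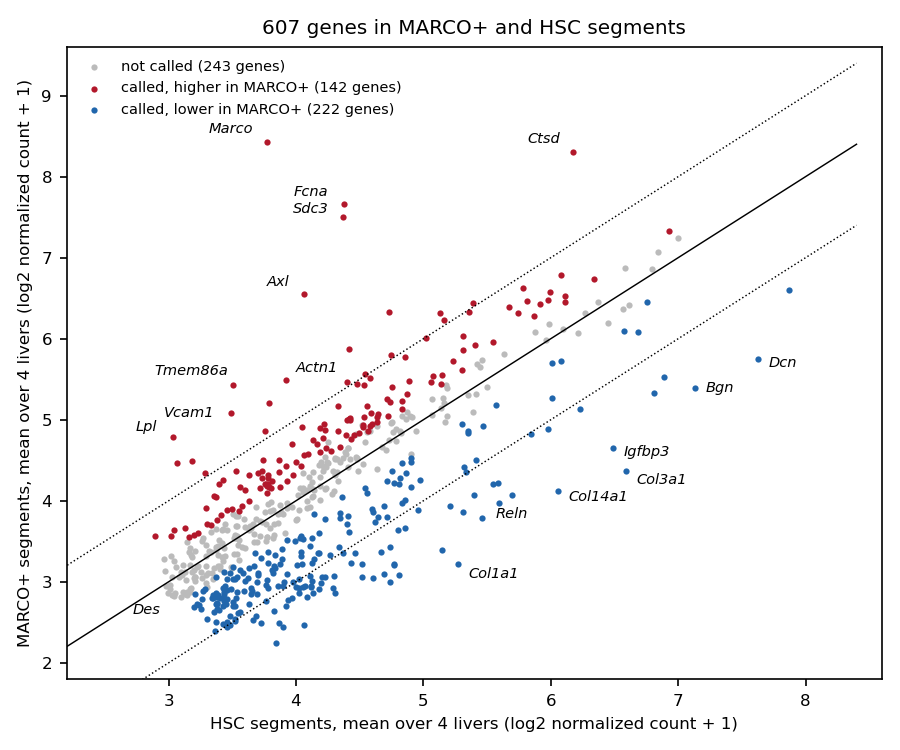
Each point is 1 of 607 genes, at its mean level over 4 livers in HSC segments (horizontal axis) and MARCO+ segments (vertical axis), both in log2 normalized count + 1. The solid line marks equal levels and the dotted lines 1 log2 unit to either side; red and blue mark the 142 genes called higher and the 222 called lower in MARCO+ segments, and grey the rest.

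The transcripts of the stained proteins serve only as a check of the segments. *Marco* was at 9.35, 7.25, 9.75 and 7.37 in the MARCO+ segments of livers 1 to 4 and at 4.41, 2.91, 4.16 and 3.62 in the HSC segments (log2 normalized count + 1). MARCO+ exceeded HSC segments in each of 37 ROIs that held both, and 42 of 45 MARCO+ segments lay above the highest HSC segment. *Des*, which encodes DESMIN, separated the segments poorly. It was at 2.76, 2.81, 2.92 and 2.83 in MARCO+ and at 3.47, 3.22, 3.10 and 2.79 in HSC segments, with a median of 2 recovered counts in HSC segments, 20 of 41 of them at 1 count. The difference of -0.31 ± 0.14 (SE, n = 4) had an adjusted p of 0.0625 by limma, and liver 4 lay at 0.04. *Aif1*, which encodes IBA1, was not among the genes analysed. Other stellate cell transcripts separated the segments more clearly. The panel had been narrowed to HSC genes beforehand, so their direction is no independent check of the label. Of 37 measured stellate cell genes, 33 were lower in MARCO+ segments, and 1, *Fcna*, which is also in the macrophage list, was higher, with a median difference of -1.10 against -0.07 over all genes.

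Decorin illustrates the HSC side. *Dcn*, a small proteoglycan that binds collagen fibrils and TGF-beta, was at 7.54, 7.92, 7.60 and 7.44 in HSC and at 5.84, 5.88, 5.69 and 5.60 in MARCO+ segments of livers 1 to 4. The groups did not overlap by liver, and HSC exceeded MARCO+ segments in 37 of 37 ROIs. The difference was -1.87 ± 0.12 (SE, n = 4; limma adjusted p = 1.485e-08), or 3.66-fold higher in HSC segments. Over single segments *Dcn* ranged from 48.4 to 415 normalized counts (median 174) in HSC and from 16.8 to 135 (median 47.8) in MARCO+ segments, so 28 of 41 HSC segments lay above every MARCO+ segment.

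Of 70 listed macrophage genes, 6 were in the panel, and all 6 were higher in MARCO+ segments (median difference 2.81). The list includes *Marco* itself, on which the segments were drawn. Next to it stood *Fcna*, which encodes ficolin A, a secreted lectin that starts the lectin pathway of complement. *Fcna* was at 7.58, 7.68, 7.83 and 7.54 in MARCO+ and at 4.00, 4.33, 4.54 and 4.63 in HSC segments. The difference was 3.28 ± 0.13 (SE, n = 4; limma adjusted p = 9.871e-11), a 9.73-fold excess, and 44 of 45 MARCO+ segments lay above all HSC segments. *Sdc3*, a transmembrane heparan sulfate proteoglycan, was at 7.77, 7.24, 7.59 and 7.42 in MARCO+ and at 4.55, 4.03, 4.35 and 4.54 in HSC segments, a difference of 3.14 ± 0.12 (limma adjusted p = 9.871e-11). All 45 MARCO+ segments exceeded every HSC segment for this gene. *Axl*, a receptor tyrosine kinase through which macrophages recognise dying cells, was at 6.62, 6.47, 6.57 and 6.53 against 4.39, 4.05, 4.13 and 3.70, and differed by 2.48 ± 0.13 (limma adjusted p = 1.839e-09). *Plac8*, a gene of myeloid cells, was far closer to equal, at 4.94, 4.01, 4.94 and 4.56 against 4.33, 3.90, 4.35 and 4.54. Its difference of 0.34 ± 0.14 was just past the threshold (limma adjusted p = 0.0455). It was 0.78 where MARCO staining was dense (MARCO-Hi) and -0.11 where it was sparse, but the interaction with ROI class did not pass (limma adjusted p = 0.275).

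The summed level of the 6 macrophage genes ran from 713 to 2959 normalized counts (median 1156) over MARCO+ segments and from 78.2 to 243 (median 169) over HSC segments, with no overlap. The summed level of the 36 stellate cell genes other than *Fcna* overlapped, from 408 to 765 (median 550) in MARCO+ and from 566 to 2060 (median 1239) in HSC segments. Whether stellate transcripts in MARCO+ segments came from adjoining HSCs was not tested. No measured gene was at 0 in any segment, which the lowest value of 1 count fixes.

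Of 11 measured genes of scavenger receptors, endocytosis and lysosomes, 6 were higher and 2 lower in MARCO+ segments (median 0.65). The shares over all genes were 23.4% higher and 36.6% lower. The 6 include *Marco*, on which the segments were drawn, and *Ctsd*, which is also in the macrophage list. Without *Marco* the median was 0.44. *Ctsd*, the aspartic protease cathepsin D, was at 8.29, 8.36, 8.27 and 8.32 in MARCO+ and at 6.03, 6.09, 6.09 and 6.48 in HSC segments. The 4 MARCO+ values spanned far less than the gap of 2.14 ± 0.13 (SE, n = 4; limma adjusted p = 5.057e-09), and every MARCO+ segment lay above every HSC segment. *Ctsz*, the cysteine protease cathepsin Z, was at 6.62, 6.13, 6.44 and 6.12 against 4.54, 4.41, 4.90 and 5.07, a difference of 1.60 ± 0.15 (limma adjusted p = 5.862e-07). *Lrp1*, an endocytic receptor, *Colec12*, a scavenger receptor with a collagen-like stalk, and *Scarb2*, a lysosomal membrane protein, rose by 0.72, 0.67 and 0.65. *Lamp2* and *Ctsl*, also lysosomal, differed by 0.24 and 0.23 and did not pass, nor did *Cd63*, a tetraspanin of lysosomes and endosomes, at -0.24. Re-centring and edgeR each gave 8 higher and 2 lower for this list. The members called lower were *Cavin1* and *Ehd2*, both of which act at caveolae, at -0.56 and -0.93. They rested on medians of 5 and 3 recovered counts in MARCO+ and 2 and 2 in HSC segments. The 9 members with a mean recovered count of at least 5 had a median of 0.67.

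A pair of genes that act on lipids was higher in MARCO+ segments. *Lpl*, lipoprotein lipase, which macrophages secrete to release fatty acids, was at 5.03, 4.64, 5.15 and 4.31 in MARCO+ and at 3.05, 3.40, 3.12 and 2.56 in HSC segments. It differed by 1.75 ± 0.14 (SE, n = 4; limma adjusted p = 1.329e-07), from a median of 15 recovered counts per MARCO+ and 2 per HSC segment. *Tmem86a*, a membrane enzyme that hydrolyses lysoplasmalogen, was at 5.48, 5.49, 5.29 and 5.44 against 3.31, 3.68, 3.56 and 3.49, a difference of 1.92 ± 0.13 (limma adjusted p = 1.485e-08). Its HSC level rested on a median of 2 counts. In the opposite direction, the other 4 of 5 measured retinoid and lipid droplet genes were lower in MARCO+ segments. *Lrat*, which esterifies retinol for storage, fell by 0.91, *Cygb*, a globin used as a stellate cell marker, by 1.46, and *Rarres2*, the precursor of chemerin, by 0.49.

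Of 17 measured genes of axon guidance and adhesion, 5 were higher and 8 lower in MARCO+ segments (median -0.37), beside 23.4% higher and 36.6% lower over all genes. The 12 of them with a mean recovered count of at least 5 had a median of 0.003. *Vcam1*, an adhesion molecule that binds integrins of leukocytes, was at 5.32, 4.74, 4.94 and 5.33 in MARCO+ and at 3.70, 2.88, 3.83 and 3.55 in HSC segments, a difference of 1.59 ± 0.14 (SE, n = 4; limma adjusted p = 2.977e-07). *Plxnb2*, a semaphorin receptor, *Sema6d*, a semaphorin, and *Itgb5*, an integrin chain, rose by 1.05, 0.74 and 0.72. *Reln*, a secreted guidance protein made by HSCs in liver, was at 4.15, 4.30, 3.98 and 3.86 in MARCO+ and at 5.93, 6.08, 5.47 and 5.30 in HSC segments, lower by -1.62 ± 0.12 (limma adjusted p = 7.363e-08). *Ntn1*, a netrin, and *Itga8*, the integrin chain that binds nephronectin, differed by -1.03 and -1.01.

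Of 27 contractile and mural cell genes, 4 were higher and 16 lower (median -0.47), beside 23.4% higher and 36.6% lower over all genes. The 4 higher were *Actn1*, *Tln1*, *Csrp1* and *Rock2*, which act in actin crosslinking, integrin linkage and contraction in many cell types. Under re-centring the list had 6 higher and 13 lower. *Actn1*, alpha-actinin 1, was at 5.72, 5.48, 5.32 and 5.45 in MARCO+ and at 3.64, 4.30, 4.11 and 3.62 in HSC segments, a difference of 1.57 ± 0.16 (SE, n = 4; limma adjusted p = 9.115e-07). *Tln1*, talin, rose by 1.06. *Tagln*, a smooth muscle actin-binding protein, and *Kcnj8*, the pore of a potassium channel of mural cells, fell by 1.11 and 0.95. *Abcc9*, the regulatory subunit of that channel, was at 3.10, 3.01, 2.96 and 2.91 in MARCO+ and at 4.66, 5.02, 4.79 and 4.48 in HSC segments, lower by -1.74 ± 0.13 (limma adjusted p = 4.769e-08), with 6 of 45 MARCO+ segments at 1 count.

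**Figure D2:**
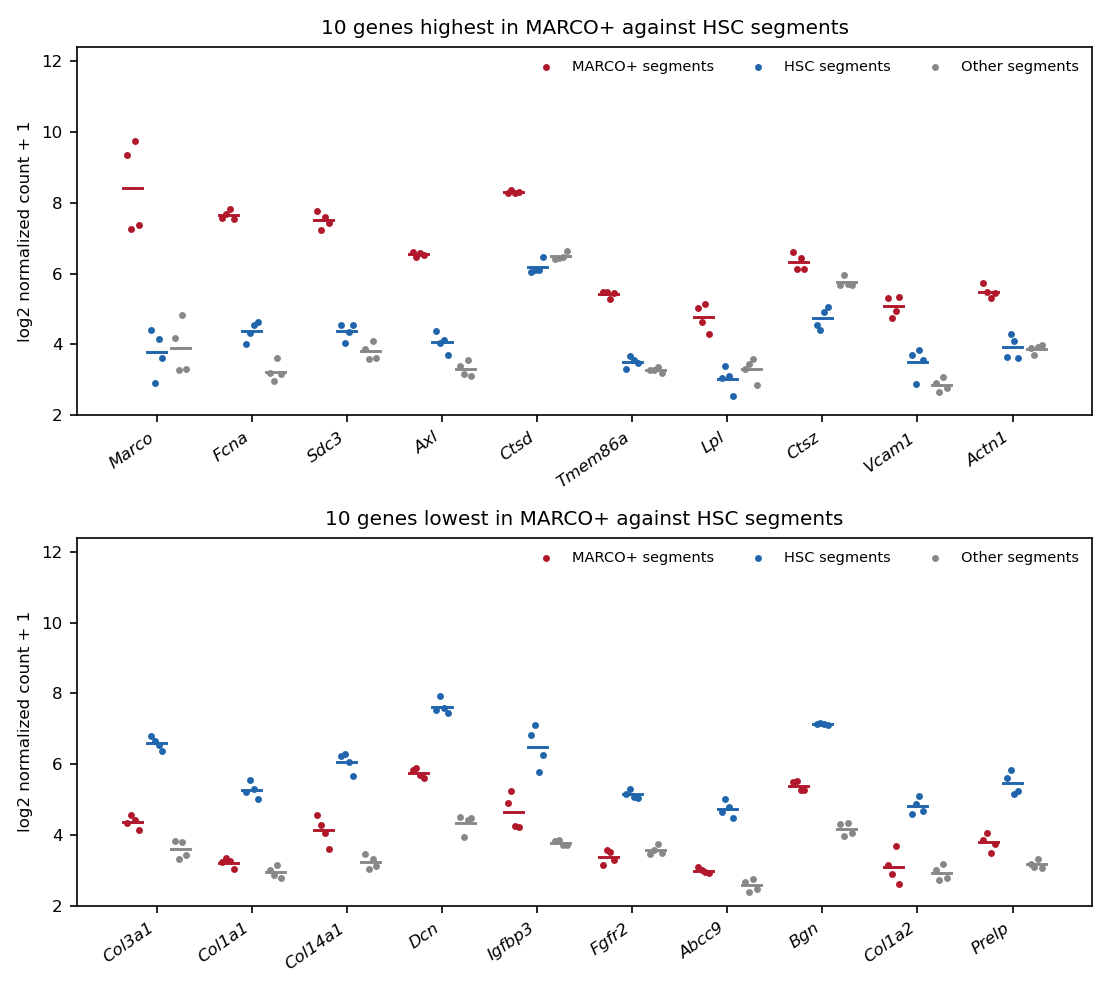
Levels in log2 normalized count + 1 of the 10 genes with the highest (upper panel) and the 10 with the lowest (lower panel) MARCO+ minus HSC difference among those past the threshold with 1 sign in all livers. Each dot is 1 of 4 livers and each bar their mean, for MARCO+ (red), HSC (blue) and Other (grey) segments. The 20 genes were chosen by this difference, so the separation of their red and blue dots is no further result.

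The collagens were lower in MARCO+ segments without exception, 11 of 11 measured chains (median -1.45), in the fibrillar, network-forming and beaded types alike. The panel had been narrowed to HSC genes beforehand, so this direction is no independent result, here or for the other matrix genes below. *Col5a2* and *Col6a2* had mean recovered counts of 3.9 and 4.5, and the other 9 chains had a median of -1.55. *Col3a1*, the chain of collagen III, was at 6.79, 6.66, 6.55 and 6.37 in HSC and at 4.33, 4.55, 4.43 and 4.15 in MARCO+ segments. It was 4.68-fold higher in HSC segments (log2 difference -2.23 ± 0.12, SE, n = 4; limma adjusted p = 2.841e-09), and HSC exceeded MARCO+ segments in 37 of 37 ROIs. *Col1a1*, a chain of collagen I, was at 5.20, 5.54, 5.30 and 5.03 against 3.25, 3.35, 3.26 and 3.03, a difference of -2.05 ± 0.12 (limma adjusted p = 5.057e-09). Its partner *Col1a2* was at 4.60, 4.87, 5.10 and 4.68 against 3.15, 2.89, 3.70 and 2.61, a difference of -1.72 ± 0.14 (limma adjusted p = 1.329e-07). MARCO+ segments held a median of 5 counts of either gene.

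*Col14a1*, a fibril-associated collagen, was at 6.23, 6.30, 6.06 and 5.66 in HSC and at 4.57, 4.29, 4.04 and 3.59 in MARCO+ segments, a difference of -1.93 ± 0.12 (SE, n = 4; limma adjusted p = 1.485e-08). The basement membrane chains *Col4a1* and *Col4a2* differed by -1.37 and -1.27, the collagen VI chains *Col6a1*, *Col6a3* and *Col6a2* by -1.55, -1.45 and -1.16, and the collagen V chains *Col5a1* and *Col5a2* by -1.22 and -0.56. The smallest difference of the list was thus that of *Col5a2* (limma adjusted p = 0.00104). One gene of collagen synthesis was opposite. *Colgalt1*, which attaches galactose to hydroxylysine in collagen and related proteins, was at 5.23, 5.20, 5.22 and 5.18 in MARCO+ and at 3.72, 4.08, 3.85 and 3.52 in HSC segments, higher by 1.41 ± 0.13 (limma adjusted p = 4.141e-07).

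The remaining matrix genes followed the collagens. All 4 measured small leucine-rich proteoglycans, which coat collagen fibrils, were lower in MARCO+ segments (median -1.71). *Bgn*, biglycan, was at 7.15, 7.15, 7.14 and 7.11 in HSC and at 5.50, 5.54, 5.27 and 5.28 in MARCO+ segments, a difference of -1.74 ± 0.12 (SE, n = 4; limma adjusted p = 3.1e-08). Its HSC level varied by an SD of 0.02 over livers. *Prelp* was at 5.60, 5.84, 5.16 and 5.24 against 3.86, 4.06, 3.50 and 3.74, a difference of -1.67 ± 0.12 (limma adjusted p = 3.982e-08), and *Lum*, lumican, differed by -1.30. Of 26 matrix glycoproteins and assembly factors, 25 were lower and 1, *Colgalt1*, was higher (median -0.92). *Efemp1*, a fibulin, *Tnxb*, tenascin X, and *Ecm1*, which holds latent TGF-beta inactive, fell by 1.60, 1.38 and 1.36. The medians behind *Efemp1* and *Tnxb* were 2 and 3 recovered counts in MARCO+ and 3 and 3 in HSC segments. *Fn1*, fibronectin, which hepatocytes also secrete, was the closest to equal at -0.31 (limma adjusted p = 0.0399), and its call was lost under re-centring or edgeR.

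Of 11 matrix proteases and inhibitors, 7 were lower and 0 higher in MARCO+ segments (median -0.65), while re-centring gave 7 lower and 2 higher. The shares over all genes were 36.6% lower and 23.4% higher. Only 4 of the 11 had a mean recovered count of at least 5, with a median of -0.34. *Adamtsl2*, a matrix protein of the ADAMTS family, *Mmp2*, gelatinase A, and *Adamts10* fell by 1.46, 1.14 and 0.90. *Mmp14*, the membrane protease that activates it, was at 0.48, *Timp2*, the inhibitor that docks both, at 0.22, *Htra1*, a secreted serine protease, at -0.19 and *Serpine2*, a serine protease inhibitor, at -0.23. None of these last 4 passed (limma adjusted p = 0.0878 for *Mmp14*). In edgeR, *Mmp14* and *Timp2* were called higher, at 0.72 and 0.40 (edgeR adjusted p = 1.362e-07 and 0.0045). *Adamtsl2* rested on a median of 2 recovered counts in MARCO+ and 3 in HSC segments.

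**Figure D3:**
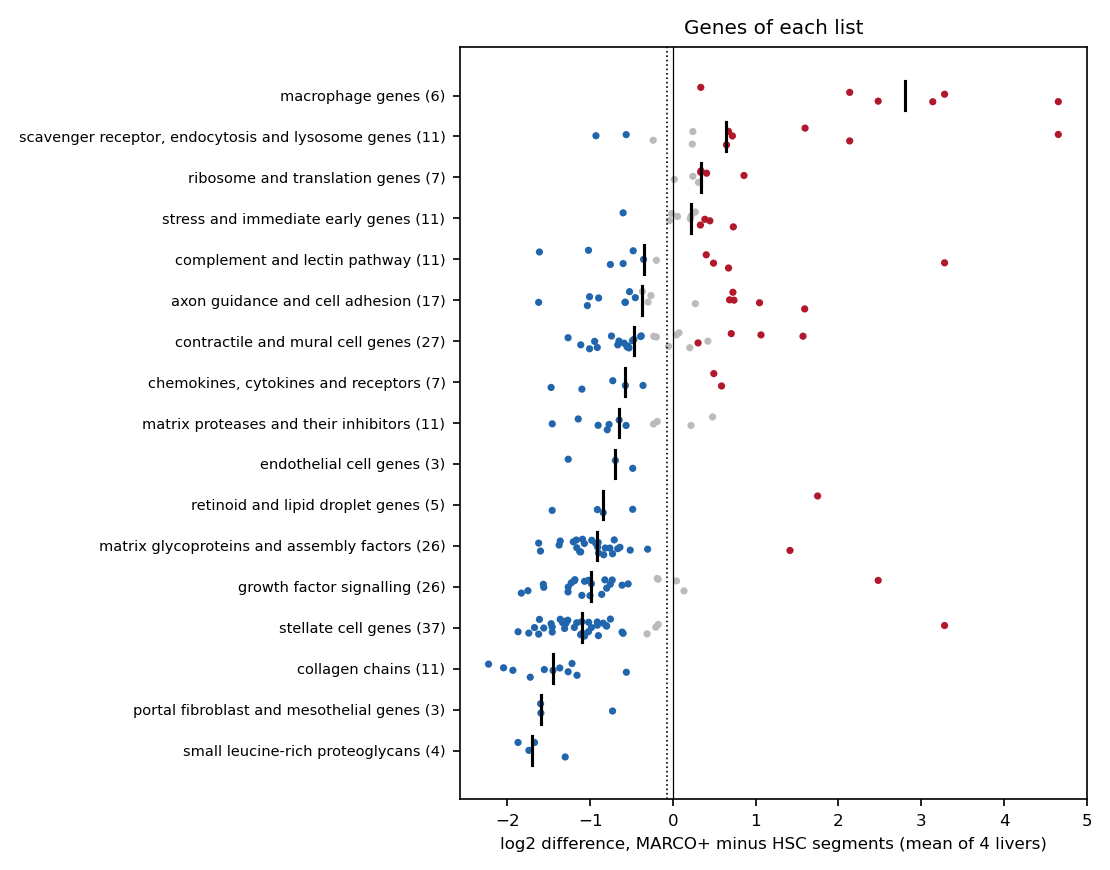
MARCO+ minus HSC log2 difference (horizontal axis, mean of 4 livers) of each measured gene in 17 gene lists, with the number measured in parentheses. Red and blue points passed the threshold as higher and lower, grey points did not; black bars mark list medians, from -1.71 for the small leucine-rich proteoglycans to 2.81 for the macrophage genes, and the dotted line the median of -0.07 over all 607 genes.

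Most measured growth factor genes were lower in MARCO+ segments, in a panel narrowed to HSC genes beforehand, so this direction is no independent result. Of 26 ligands, receptors and binding proteins, 21 were lower and 1, *Axl*, was higher (median -0.99). The shares over all genes were 36.6% lower and 23.4% higher. The 15 of the 26 with a mean recovered count of at least 5 had a median of -1.10. Among ligands, *Gdf2*, which encodes BMP9, and *Bmp5* fell by 1.57 and 1.56. Among receptors, *Fgfr2* was at 5.17, 5.29, 5.08 and 5.04 in HSC and at 3.15, 3.58, 3.52 and 3.31 in MARCO+ segments, a difference of -1.75 ± 0.13 (SE, n = 4; limma adjusted p = 3.852e-08). Among binding proteins, *Igfbp3*, a carrier of insulin-like growth factors, was at 6.83, 7.10, 5.77 and 6.26 in HSC and at 4.89, 5.23, 4.27 and 4.23 in MARCO+ segments. Both segment types were lower for *Igfbp3* in livers 3 and 4 than in livers 1 and 2, and the difference of -1.83 ± 0.13 (limma adjusted p = 3.249e-08) held in each liver. The receptor *Bmpr1a* and its effector *Smad5* were at 0.13 and 0.04, and the Wnt agonist *Rspo3* at -0.18, none past the threshold.

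Of 7 chemokine and cytokine genes, the receptors *Ifnar2* (type I interferon) and *Tnfrsf1a* (TNF) were higher by 0.59 and 0.49. The other 5 were lower, led by the chemokines *Cxcl12*, which attracts CXCR4-bearing cells, at -1.47 and *Ccl19*, which attracts lymphocytes and dendritic cells, at -1.10. *Tnfrsf11b*, the decoy receptor osteoprotegerin, *Il1r1*, an interleukin receptor, and *Lifr* followed at -0.73, -0.57 and -0.36. The call of *Lifr* was lost under re-centring. *Ccl19* rested on a median of 3 recovered counts in either segment type. The 4 of 7 genes with a mean recovered count of at least 5 had a median of 0.07, against -0.57 for all 7. Over all genes, 23.4% were higher and 36.6% lower.

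Of 11 measured complement genes, 4 were higher and 6 lower in MARCO+ segments (median -0.35), where 142 genes were higher and 222 lower over all 607. *Fcna* stood at 3.28, while the soluble collectins *Colec11* and *Colec10*, which recognise sugars and activate the same pathway, fell by 1.61 and 0.76, as did the protease *Masp1* by 1.02. *Colec11* was at 5.78, 5.69, 5.30 and 5.60 in HSC and at 4.16, 4.21, 3.69 and 3.86 in MARCO+ segments (limma adjusted p = 5.335e-08). The later components *C2* and *C4b* rose by 0.49 and 0.40, and the regulator *Serping1* and the protease *C1s1* fell by 0.60 and 0.48. *C2*, *C4b*, *Serping1* and *C1s1* were each lower in MARCO+ and in HSC segments than in Other segments, the parts of the ROIs without those stains. *Fcna*, *Colec11* and *Colec10* were higher than Other in both. *C4b* was at 7.33, 6.93 and 8.13 in MARCO+, HSC and Other segments.

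Of 11 stress and immediate early genes, 4 were higher and 1 lower (median 0.22), led by the chaperone *Hspa5* at 0.73. Of 7 translation genes, 4 were higher and 0 lower (median 0.34), led by the initiation factor *Eif4g3* at 0.86. Under re-centring the counts were 7 higher and 1 lower for the former and 6 and 0 for the latter. Without re-centring, 23.4% of all genes were higher and 36.6% lower. The only mitochondrial gene of its list, *Ndufa2*, was at 0.28 and did not pass (limma adjusted p = 0.0575). It was called higher after re-centring and in edgeR.

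Markers of other cells in the tissue were few in this panel. Of 42 endothelial genes 3 were measured, *Igfbp7*, *Plvap* and *Calcrl*, and all 3 were lower in MARCO+ segments, at -1.27, -0.70 and -0.49. Their summed level ran from 62.2 to 196 (median 123) normalized counts in MARCO+ and from 109 to 437 (median 278) in HSC segments. The 3 measured genes of portal fibroblasts and mesothelium, *Gsn*, *Dpt* and *Eln*, were lower at -1.60, -1.60 and -0.73, with sums from 8.02 to 39.1 and from 14.9 to 174. The medians behind *Dpt* and *Eln* were 3 and 3 recovered counts in MARCO+ and 3 and 2 in HSC segments. These genes are in a panel narrowed to HSC genes, so they do not gauge how much of either cell type a segment held. The part of either cell type in the differences was not tested. No listed hepatocyte, cholangiocyte, lymphocyte or neutrophil gene was analysed here.

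Promoters are shown for 3 of the 5 highest genes, because a sequence element of macrophage or lysosomal genes was found in each. They were chosen after the values were seen. Each run is the 250 bases before the RefSeq start of the gene (GRCm38.p6, 5′ to 3′ on the gene's strand), with matches on either strand in capitals. For *Marco* (chr1:120505025-120505274, minus strand) and *Fcna* (chr2:25627975-25628224, minus strand) the capitals mark GAGGAAG, a core that the macrophage factor PU.1 can bind. For *Ctsd* (chr7:142387828-142388077, minus strand) they mark TCACGTGA, the palindromic centre of the element found before many lysosomal genes.
Marco: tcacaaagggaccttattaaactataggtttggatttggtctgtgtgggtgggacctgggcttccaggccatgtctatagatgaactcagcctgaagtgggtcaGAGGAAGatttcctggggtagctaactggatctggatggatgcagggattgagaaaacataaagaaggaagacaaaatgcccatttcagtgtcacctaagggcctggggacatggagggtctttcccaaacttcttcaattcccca
Fcna: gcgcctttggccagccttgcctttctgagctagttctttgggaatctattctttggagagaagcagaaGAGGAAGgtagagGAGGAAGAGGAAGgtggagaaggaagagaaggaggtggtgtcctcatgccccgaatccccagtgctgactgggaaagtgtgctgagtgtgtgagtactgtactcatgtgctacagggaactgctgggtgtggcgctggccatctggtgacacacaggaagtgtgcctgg
Ctsd: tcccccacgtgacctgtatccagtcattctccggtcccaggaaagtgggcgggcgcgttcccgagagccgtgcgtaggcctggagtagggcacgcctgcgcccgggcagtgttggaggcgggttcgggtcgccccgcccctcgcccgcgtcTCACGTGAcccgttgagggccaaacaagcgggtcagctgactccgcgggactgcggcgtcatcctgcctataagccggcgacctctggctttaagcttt
*Fcna* held 3 matches, the last 2 of which share 1 base, and *Marco* and *Ctsd* 1 each. *Axl* also held 1 match to GAGGAAG, and *Sdc3* held neither motif. GAGGAAG is common. It was in 10.6% of 32851 promoters of this length and in 48 of the 464 of genes analysed (10.3%), and in 15 of 116 genes called higher (12.9%) and 19 of 163 called lower (11.7%) that had a promoter in the table. TCACGTGA was in 0.785% of all promoters, in 10 of the 464 of genes analysed (2.16%), and in 5 of 116 (4.31%) and 0 of 163. The 5 genes were *Ctsd*, the chaperone *Calr*, *Myl12a*, *Prrc2c* and *Ubap2l*, and of these only *Ctsd* is lysosomal. A match describes the letters and not the binding of a factor, and promoters were in the table for 464 of 607 genes.

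The difference was then compared between ROI classes, since MARCO-Hi regions held the densest MARCO staining. Of 607 genes, 1 passed by limma for the difference between classes (0.165%), and it was *Fcna*. In MARCO-Hi ROIs of livers 1 to 4, its MARCO+ minus HSC difference was 4.75, 4.27, 4.12 and 3.54. The MARCO-Lo ROIs gave 2.41, 2.44, 2.45 and 2.28, so the classes did not overlap. The interaction was 1.78 ± 0.27 (SE, n = 4; limma adjusted p = 0.000137). Neither segment type was tested alone between the classes, and *Fcna* in HSC segments rested on a median of 5 recovered counts, with 8 of 41 at 1 count. By mean level, the segment types went in opposite directions. MARCO+ segments were higher in MARCO-Hi ROIs (8.17 ± 0.12 against 7.14 ± 0.20, SD, n = 4), and HSC segments were lower there (4.00 ± 0.52 against 4.75 ± 0.14). No other gene passed. The collagen and proteoglycan differences were present in each class. *Col3a1* differed by -2.07 where MARCO staining was dense and by -2.38 where it was sparse, and *Dcn* by -1.65 and -2.10.

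**Figure D4:**
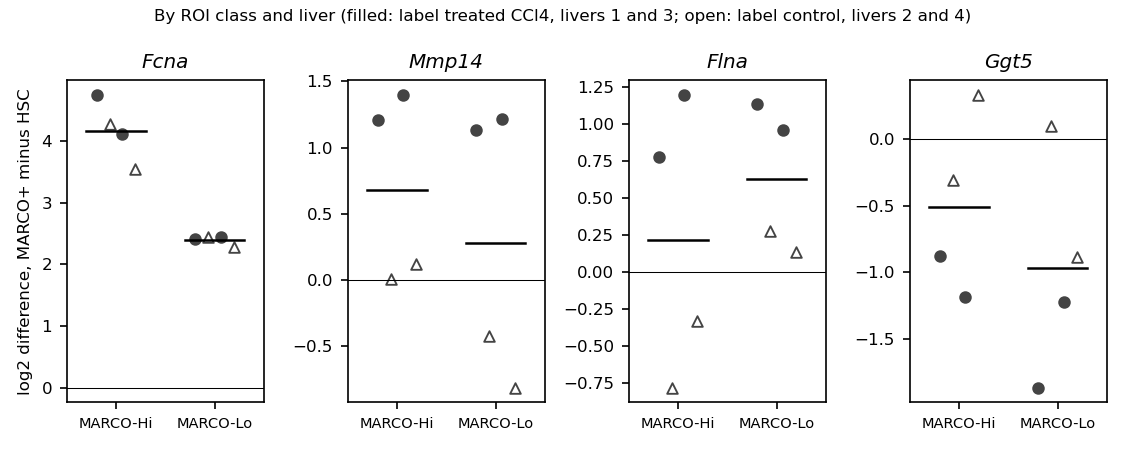
MARCO+ minus HSC log2 difference (vertical axis, a separate scale per gene) of 4 genes by ROI class. Each symbol is 1 liver, filled circles for livers labelled treated CCl4 and open triangles for livers labelled control, and the bar is the mean of 4. *Fcna* is higher in MARCO-Hi ROIs in every liver, while *Mmp14*, *Flna* and *Ggt5* separate by label.

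By label, 4 of 607 genes passed (0.659%), 3 with a higher difference in the livers labelled treated CCl4 (0.494%) and 1 with a lower one (0.165%). With 2 livers on each side, a single liver weighs heavily. *Mmp14* was at 5.31 and 5.57 in the MARCO+ segments of livers 1 and 3 and at 4.18 and 3.84 in those of livers 2 and 4, while its HSC segments stayed between 4.14 and 4.40. The differences were 1.17 and 1.31 against -0.21 and -0.35, an interaction of 1.52 ± 0.25 (SE; limma adjusted p = 0.000861). *Flna*, filamin A, an actin crosslinker, was at 5.20 and 5.49 in the MARCO+ segments of livers 1 and 3 and at 4.59 and 4.47 in those of livers 2 and 4, with HSC segments at 4.24 and 4.41 against 4.85 and 4.56. Its interaction was 1.19 (limma adjusted p = 0.015). *Ggt5*, a gamma-glutamyl transferase that acts on leukotriene C4, was lower in MARCO+ segments by 1.37 and 1.21 in livers 1 and 3 and by 0.10 and 0.28 in livers 2 and 4, an interaction of -1.10 (limma adjusted p = 0.0213), from a median of 2 counts in HSC and 4 in MARCO+ segments. The fourth gene was *Marco* (1.22), whose protein defined the segments. Without liver 1 or liver 3, 0 genes passed, with 35 and 37 at an unadjusted limma p under 0.05, and without liver 2 or liver 4 there were 2 and 1. With ROI pairs as the replicate block 0 genes passed (36 at an unadjusted limma p under 0.05), and 0 with the median over segments (39). MARCO+ segments of livers 1 and 3 were also the deeper ones relative to HSC, by 1.68 and 1.83 on the log2 scale against 0.52 and 0.80 in livers 2 and 4, and the part of depth in these interactions was not tested.

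The Other segments, 49 parts of the ROIs without the macrophage or HSC stains, placed both members of the comparison. The following comparisons share their MARCO+, HSC or Other samples with each other and with the main one. By limma, 346 genes passed for MARCO+ minus Other (57%), 157 higher (25.9%) and 189 lower (31.1%), and 448 for HSC minus Other (73.8%), 249 higher (41%) and 199 lower (32.8%). Re-centring gave 117 and 301 for the first and 172 and 303 for the second. Of the 142 genes called higher in MARCO+ than in HSC segments, 71 were higher and 26 lower in MARCO+ than in Other segments. Of the 222 called lower, 181 were higher and 13 lower in HSC than in Other segments. All 6 macrophage genes were higher in MARCO+ than in Other segments, and HSC segments were above Other for 4 of them and below for 1. *Fcna* was at 3.19, 2.97, 3.61 and 3.16 in the Other segments of livers 1 to 4, which put MARCO+ segments 4.43 and HSC segments 1.15 log2 units above them (limma adjusted p = 3.568e-13 and 3.423e-06). *Ctsd* was at 6.40, 6.44, 6.47 and 6.64 in Other segments, 1.82 below MARCO+ and 0.31 above HSC segments.

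All 11 collagens were higher in HSC than in Other segments, and 5 of 11 were also higher in MARCO+ than in Other segments. *Dcn* was at 4.49, 3.94, 4.43 and 4.49 in Other segments, so MARCO+ segments stood 1.41 and HSC segments 3.28 above them. *Col3a1* stood 0.76 and 2.99 above Other, and *Bgn* 1.23 and 2.97. *Fgfr2* differed, with HSC segments 1.58 above Other and MARCO+ segments at -0.18 (limma adjusted p = 0.117). Of 37 stellate cell genes, 35 were higher and 1 lower in HSC than in Other segments, and 16 were higher and 6 lower in MARCO+ than in Other segments. The Other segments were also by far the deepest, with 75571 to 448875 counts, and the part of depth in these differences was not tested.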

How the data were processed

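Barcodes of 159 segments of 4 livers were measured with a whole-transcriptome probe set. Per the study's methods and processing notes, reads were converted with bcl2fastq (2.20.0.422), collapsed by molecular identifier and Q3-normalized. The signal values were deposited by the authors as Q3-normalized counts of 607 genes. Each segment had an upper quartile of 26.074. Dividing by the segment's smallest step turned all 96513 values whole (relative tolerance 1e-06), which recovered the counts. Raw reads and negative probes were not used here. Groups came from the labels. ROI class of 1 ROI came from its titles only. Main and alternative fits used limma 3.58.1, edgeR 4.0.16, DESeq2 1.42.0, lme4 1.1.37 and lmerTest 3.1.3 in R 4.3.3, at an adjusted p of 0.05, with segments paired within liver and ROI class. ROIs and segments of a liver share an animal, so n was 4 livers. Methods were tested on simulated data. Named genes were the 12 highest and 12 lowest past the threshold with 1 sign in all livers, the stained genes and *Dcn*, the interaction genes, all measured members of lists of up to 12 genes and the 4 highest and 4 lowest of longer ones. Some genes that this rule names are not reported here. *Rock2* and the genes named for a promoter match were named after their values were seen. Genes and lists were chosen with earlier results of these data known.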

Additional observations from a re-analysis of the deposited data

Results flagged for a closer look

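The difference between MARCO+ and HSC segments was itself unequal between ROI classes or labels in 5 genes by limma's interaction test. *Fcna* differed by 1.78 log2 units more in MARCO-Hi than in MARCO-Lo ROIs. Between the livers labelled treated CCl4 and those labelled control, *Mmp14* differed by 1.52, *Marco* by 1.22, *Flna* by 1.19 and *Ggt5* by -1.10. None of these 4 passed with ROI pairs as the replicate block or with the median over segments. Among the 122 genes selected for naming, 1 liver stood apart from the other 3 for 5 genes, by Dixon's criterion for 4 values, which chance meets in about 1 of 20 groups. For *Sdc3*, liver 4 had a MARCO+ minus HSC difference of 2.88 against 3.21 to 3.25 in the others. For *Col14a1*, liver 1 had -1.65, while livers 3 and 4 had -2.01 and -2.07 and liver 2 lay next to them. For *Fn1*, liver 2 had -0.13 against -0.35 to -0.37, for *Timp2*, liver 1 had 0.42 against 0.13 to 0.18, and for *Mmp23*, liver 4 had -0.93 against -0.41 to -0.47.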

How the results depend on the processing

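The number of genes called between MARCO+ and HSC segments ranged from 267 (MARCO-Lo ROIs only) to 417 (linear mixed model) over all alternatives, against 364, and with 1 liver left out from 309 to 339. No gene was called in the opposite direction. The counts without the replicate block (355) and with ROI pairs as the replicate block (345) were close to it. All 24 highest and lowest genes and *Dcn* kept their call and direction in every alternative that tested them. *Des* passed in 6 of its alternatives. The ROI class interaction had 1 gene, and 2 with a common floor. The label interaction of 4 genes fell to 0 with the median over segments (39 genes at an unadjusted limma p under 0.05) or with ROI pairs as the replicate block (36 genes), and ranged from 0 to 2 with 1 liver left out. The cause was not tested. Without genes of low count, 4 of the 7 chemokine and cytokine genes were left, with a median of 0.07, against -0.57 for all 7. HSC segments held a median of 14.3% of genes at 1 count, against 3.29% in MARCO+ segments, which limits folds of low genes.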

Other observations

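MARCO- macrophage segments, which carried IBA1 without MARCO, were the shallowest, with 1065 to 4457 recovered counts in 24 segments, and entered no test. Averaged per liver, *Fcna* was at 6.08, 5.90, 6.14 and 5.71 in livers 1 to 4 (5.96 ± 0.19, SD, n = 4), between the MARCO+ mean of 7.66 and the HSC mean of 4.38. *Axl* was at 6.28 ± 0.23 and *Ctsd* at 7.73 ± 0.35, nearer to their MARCO+ means of 6.55 and 8.31 than to their HSC means of 4.07 and 6.17. *Marco* was at 4.55 ± 0.75. A segment type could be absent from an ROI class of a liver, as for MARCO- in the MARCO-Hi ROIs of liver 2, where the mean is that of the other class.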
